A study of Populus sp. cv. 'Okanese' with 18 samples.

Results

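PRR9 and PRR7 each have a pair of paralogues in the poplar genome, and these 4 genes are described here across 2 times of day and 3 levels of soil water. The members were taken by identifier from the clock genes that the study names: Potri.014G106000 and Potri.002G179800 for PRR9, Potri.010G215200 and Potri.008G046200 for PRR7. They are 4 of the 31033 genes in the table of read counts, and all 4 were among the 23700 genes within the limits of level used for testing.

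Pseudo-response regulators are nuclear proteins that repress transcription. In Arabidopsis they are made in turn through the day, PRR9 in the morning, then PRR7, then PRR5, and each helps to hold down the morning genes CCA1 and LHY. Their daily course sets the pace of the leaf clock, which also times stomatal movement, photosynthesis and starch breakdown. Poplar has kept duplicate copies of many such genes from a whole-genome duplication.

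The plants were cuttings of 1 hybrid poplar, Populus × ‘Okanese’, grown for 42 days and then kept for 21 days at a target gravimetric soil water content (SWCg). It is given here as a percentage of field capacity as in the study, where the number is the upper limit of a target range, while the sample labels give the same numbers in g/g. RNA came from leaves that formed during those 21 days, taken at 16 h (early evening, EE) or at 10 h (late morning, LM). The groups are EE30 (severe drought), EE50 (moderate drought), EE80 (well-watered control), LM30 (severe drought), LM50 (moderate drought) and LM80 (well-watered control), where the number is the SWCg in percent. Each group has 3 libraries, lettered A, B and C. All trees share 1 genotype. Whether the libraries of a group come from separate trees is not stated in the sources used here, and p-values cover no more than the variation among the libraries at hand.

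The total count per library lay between 17348563 and 48110546 with a median of 24020818. The column headers of all 9 early evening libraries carry 1 run tag and those of all 9 late morning libraries another, so time of day and run tag cannot be told apart in any comparison of EE with LM. LM30 B, LM80 A and EE30 C were the 3 libraries farthest from the rest of their own group. Leaf identity was not checked against marker genes, since no annotation of gene function was used here. In a bulk leaf library, fewer cells that use a gene and less RNA per cell cannot be told apart.

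The gene models differ in size more than in layout. In the P. trichocarpa v4.1 assembly Potri.014G106000 lies on the plus strand of chromosome 14 (7107684 to 7112847), with 8 separate exon blocks after transcripts are merged and 2956 exonic bases. Its paralogue Potri.002G179800 lies on the plus strand of chromosome 2 (14117543 to 14123501), also with 8 exon blocks and 3268 exonic bases. Potri.010G215200 is on the minus strand of chromosome 10 (20262808 to 20271048) with 10 exon blocks and 2857 exonic bases. Potri.008G046200 is on the plus strand of chromosome 8 (2674335 to 2683096) with 9 exon blocks and 3269 exonic bases. Both PRR7 genes thus span more of the genome, 8241 and 8762 bases, than the PRR9 genes, 5164 and 5959 bases. No other annotated gene overlaps any of the 4 on either strand, and the closest neighbour is 1205 bases away, beside Potri.008G046200.

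The lowest number of reads assigned to a member in any library was 434 (Potri.010G215200 in LM30 C) and the highest 6737 (the same gene in EE80 C). At these numbers counting error alone gives a coefficient of variation of 1.51 to 4.42 % in a group. Levels within a gene are given as CPM, the read count relative to the library total after TMM scaling, and levels of different genes are compared only after division by exon length (RPKM).

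The PRR9 genes parted in their daily change. Potri.014G106000 had 62.5, 73.7 and 66.9 CPM in EE30, 48.6, 66.4 and 65.7 CPM in EE50, and 60.3, 65.4 and 67.3 CPM in EE80. In the late morning it had 201, 212 and 175 CPM in LM30, 177, 164 and 169 CPM in LM50, and 179, 154 and 151 CPM in LM80. The lowest of its 9 late morning values lay above the highest of its 9 early evening values. At 30 % SWCg it averaged 67.7 ± 5.63 CPM in EE30 and 196 ± 18.9 CPM in LM30 (SD, n = 3 each), a log2 fold change of −1.53 with a standard error of 0.114. The log2 fold change was −1.49 at 50 % SWCg (EE50 60.2 ± 10.07 CPM, LM50 170 ± 6.46 CPM, SD, n = 3 each) and −1.32 at 80 % SWCg (EE80 64.3 ± 3.61 CPM, LM80 161 ± 15.4 CPM, SD, n = 3 each). It fell in the early evening at all 3 water levels, with edgeR adjusted p = 9.17e-09, 1.16e-08 and 4.95e-08 at 30, 50 and 80 % SWCg. Averaged over the water levels its early evening level was 0.366 times that of the late morning (95 % interval 0.332 to 0.403).

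Potri.002G179800, the other PRR9 gene, stayed within a narrow band. It had 138, 135 and 150 CPM in EE30, 141, 124 and 125 CPM in EE50, and 165, 128 and 155 CPM in EE80. In the late morning it had 151, 143 and 140 CPM in LM30, 161, 145 and 156 CPM in LM50, and 149, 156 and 155 CPM in LM80. Early evening and late morning libraries overlapped at 30 and 80 % SWCg and did not at 50 % SWCg, where EE50 was the lowest of the 6 groups. The log2 fold change of EE against LM was −0.03 at 30 % (standard error 0.087, edgeR adjusted p = 0.774), −0.24 at 50 % (standard error 0.087, edgeR adjusted p = 0.0262) and −0.04 at 80 % SWCg (standard error 0.087, edgeR adjusted p = 0.708). Only the fall at 50 % SWCg passed the test. That call was lost when EE50 B, EE50 C, LM50 A or LM50 C was left out, with edgeR adjusted p between 0.0646 and 0.0920. Averaged over the 3 water levels the log2 fold change was −0.11 (95 % interval −0.21 to −0.0001, edgeR adjusted p = 0.0690). This value lay at the edge of the threshold: with DESeq2 size factors in place of TMM it was −0.14 and passed (edgeR adjusted p = 0.0178). The interval at 30 % SWCg reached 0.860-fold on the lower side and 1.11-fold on the upper side.

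Both PRR7 genes rose in the early evening, by very different amounts. Potri.010G215200 had 218, 265 and 193 CPM in EE30, 221, 262 and 220 CPM in EE50, and 226, 266 and 222 CPM in EE80. In the late morning it had 46.1, 41.9 and 40.3 CPM in LM30, 45.6, 42.2 and 43.0 CPM in LM50, and 48.6, 35.9 and 46.5 CPM in LM80. The lowest early evening library, EE30 C, stood far above the highest late morning library, LM80 A. At each water level the library lettered B was the highest of its early evening group.

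The mean of Potri.010G215200 was 226 ± 36.7 CPM in EE30 against 42.8 ± 3.00 CPM in LM30, 234 ± 24.1 CPM in EE50 against 43.6 ± 1.77 CPM in LM50, and 238 ± 24.1 CPM in EE80 against 43.7 ± 6.86 CPM in LM80 (SD, n = 3 each). These are 5.27-fold, 5.38-fold and 5.45-fold increases at 30, 50 and 80 % SWCg, with edgeR adjusted p = 3.16e-10, 2.32e-10 and 2.39e-10. The 3 fold changes lie within each other's 95 % intervals, the widest of which was 4.49 to 6.63 at 80 % SWCg.

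Potri.008G046200 had 174, 183 and 179 CPM in EE30, 176, 173 and 180 CPM in EE50, and 191, 189 and 183 CPM in EE80. Its late morning values were 137, 118 and 123 CPM in LM30, 138, 143 and 128 CPM in LM50, and 151, 132 and 131 CPM in LM80. All 9 early evening libraries were above all 9 late morning libraries. The log2 fold change of EE against LM was 0.50 at 30 %, 0.37 at 50 % and 0.44 at 80 % SWCg, each with a standard error of 0.073 (edgeR adjusted p = 2.20e-05, 3.88e-04 and 8.85e-05). Averaged over the water levels this is a 1.35-fold rise (95 % interval 1.27 to 1.44), beside 5.37-fold for Potri.010G215200 (4.79 to 6.01).

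**Figure D1:**
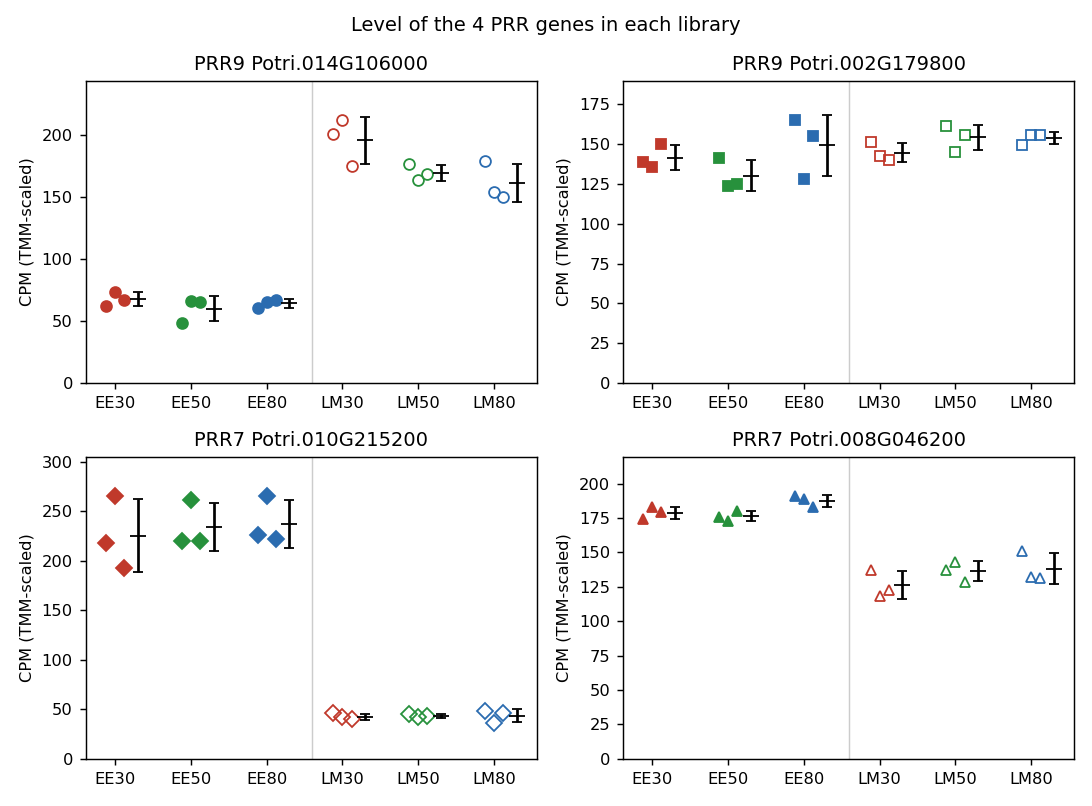
Level of each PRR gene in CPM (linear axis starting at 0) in each of the 18 libraries, with 1 panel per gene; points are libraries A, B and C from left to right, filled for EE and open for LM, red for 30 %, green for 50 % and blue for 80 % SWCg, and the black bar beside them is the mean with its SD (n = 3). Potri.014G106000 is lower in EE, both PRR7 genes are higher in EE, and Potri.002G179800 lies between 124 and 165 CPM throughout.

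The number of members called must be read against a background in which time of day changed most genes. Of all genes tested, 53.4 % were called between EE30 and LM30, 52.9 % between EE50 and LM50 and 51.8 % between EE80 and LM80, and 70.1 % for the mean of the 3 water levels. Of the 4 members 3 were called at 30 %, 4 at 50 % and 3 at 80 % SWCg, and 3 for the mean. The same members had groups that did not overlap, against 57.4 % of all genes at 30 %, 62.8 % at 50 % and 58.2 % at 80 % SWCg. Since more than 50 % of genes passed, the number of PRR genes called is not particular to them, and they differ from one another in size and sign.

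By size of the mean daily change, Potri.010G215200 exceeded 96.1 % of all genes tested and Potri.014G106000 exceeded 89.0 %. Potri.008G046200 was near the middle, above 53.1 %, and Potri.002G179800 was above 15.5 %. The median absolute log2 fold change over all genes tested was 0.40.

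**Figure D2:**
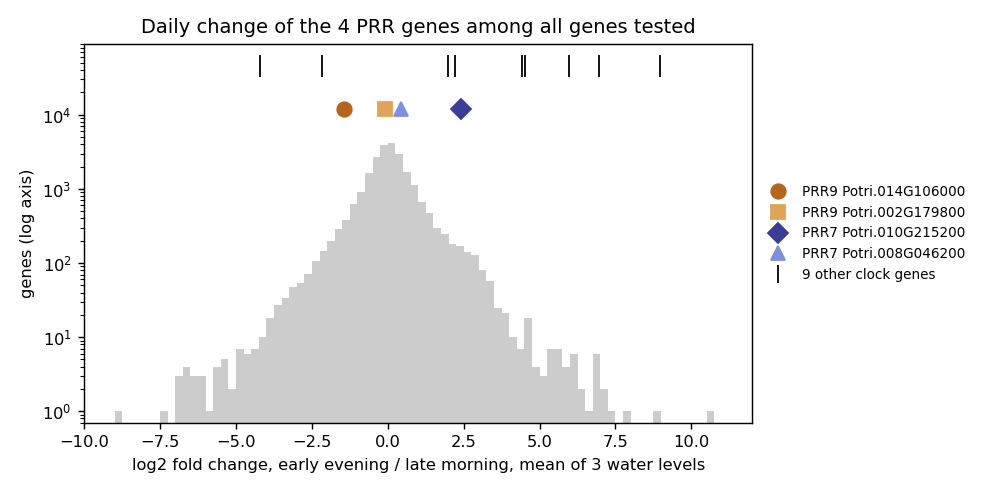
Histogram of the log2 fold change of EE against LM, averaged over the 3 water levels, for the 23700 genes tested (grey bars, number of genes on a log axis), with the 4 PRR genes as coloured symbols and 9 other clock genes as black ticks, both drawn at an arbitrary height. The PRR genes sit at −1.45, −0.11, 0.44 and 2.42.

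Time of day and water level took unlike shares of the variation in log2 CPM over the 18 libraries. For Potri.010G215200, 98.7 % of the sum of squares lay between the times, 0.047 % between water levels within a time and 1.23 % between libraries of 1 group. The share between water levels was smaller than that of all but 0.046 % of the genes tested. For Potri.014G106000 the shares were 95.7 % between times, 1.77 % between water levels and 2.56 % within groups. For Potri.008G046200 they were 88.6, 4.40 and 7.03 %. Potri.002G179800 stood apart, with 21.5 % between times, 28.5 % between water levels and 50.0 % within groups. Its share between water levels exceeded that of 83.0 % of the genes tested, beside 11.8 % for Potri.014G106000 and 26.2 % for Potri.008G046200. The medians over all genes tested were 52.0 % between times, 10.9 % between water levels and 30.8 % within groups. These shares are a description and carry no test. They rest on unequal degrees of freedom, fewest between times and most within groups, so their sizes within a gene are not comparable as effects. Nor do the ranks between genes measure a response to water. Each share is a part of the gene's own total, so a small share between times leaves more for the others. Potri.002G179800 was not called in any comparison of water levels.

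The spread between libraries also differed among the members. Potri.008G046200 was the steadiest in the early evening, with coefficients of variation of 2.43, 2.01 and 2.24 % in EE30, EE50 and EE80, close to the 1.69 to 1.82 % that counting alone gives. For 2451 genes whose average log2 CPM lay within 0.5 of the range of the members, the lowest 10 % had coefficients of variation up to 2.26, 2.56 and 2.75 % in the same groups, and the median lay at 6.31, 7.01 and 6.94 %. In the late morning Potri.008G046200 was at 7.97, 5.33 and 7.99 % in LM30, LM50 and LM80. Potri.010G215200 varied most among EE30 libraries, 16.3 %, where EE30 C was its lowest value and EE30 B its highest. Potri.014G106000 varied most in EE50, 16.7 %, where EE50 A was low, and Potri.002G179800 in EE80, 12.8 %, where EE80 B was low.

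Per length of exon the order of the 4 genes turned round between the times of day. In EE80 Potri.010G215200 was highest at 83.2 ± 8.45 RPKM, followed by Potri.008G046200 at 57.3 ± 1.28, Potri.002G179800 at 45.6 ± 5.84 and Potri.014G106000 at 21.8 ± 1.22 RPKM (SD, n = 3 each). In LM80 Potri.014G106000 was highest at 54.5 ± 5.21 RPKM, followed by Potri.002G179800 at 47.0 ± 1.10, Potri.008G046200 at 42.3 ± 3.38 and Potri.010G215200 at 15.3 ± 2.40 RPKM (SD, n = 3 each). The early evening order held in 9 of 9 EE libraries. The late morning order, its exact reverse, held in 8 of 9 LM libraries, the exception being LM80 A, in which Potri.008G046200 (46.2 RPKM) was just above Potri.002G179800 (45.7 RPKM).

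The highest PRR gene of one time was therefore the lowest of the other. Among the genes tested, Potri.010G215200 was above at least 94.5 % in RPKM in each of the 3 early evening groups and above 66.9 to 67.3 % in the late morning groups. Potri.014G106000 was above 74.2 to 76.8 % in the early evening groups and above 90.2 to 92.5 % in the late morning groups.

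**Figure D3:**
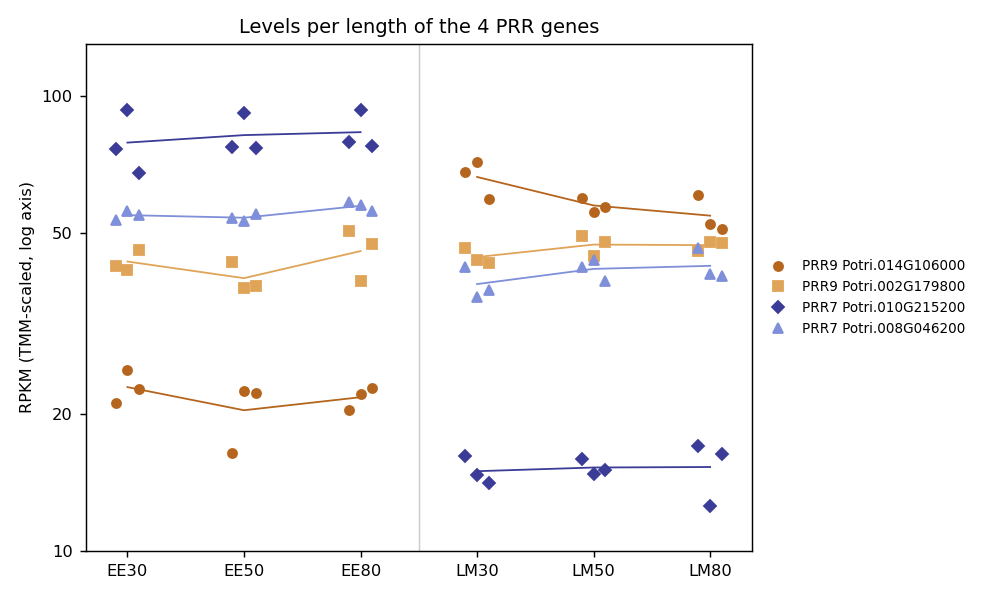
Level per length (RPKM, log axis) of the 4 PRR genes in the 18 libraries by group, with points for libraries and lines through the group means within each time of day. Potri.010G215200 is the highest and Potri.014G106000 the lowest in every EE library, and the reverse holds in every LM library.

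Within a pair, the ratio of the paralogues does not depend on library size or scaling. For PRR9 the level of Potri.014G106000 per length was divided by that of Potri.002G179800. The log2 ratio was −0.92 ± 0.161 for EE30, −0.98 ± 0.361 for EE50 and −1.06 ± 0.242 for EE80. Late morning libraries gave 0.58 ± 0.126 for LM30, 0.29 ± 0.031 for LM50 and 0.21 ± 0.168 for LM80 (SD over 3 libraries each). It was below 0 in all 9 EE libraries and above 0 in all 9 LM libraries. Per length, Potri.014G106000 was thus the lesser PRR9 transcript in the evening and the greater one in the morning. In LM80 B and LM80 C it was only just the greater, with log2 ratios of 0.13 and 0.099. The sign of the ratio may also depend on the exon lengths used and on reads left out in counting. With times permuted within water levels the difference of −1.34 had a two-sided exact permutation p = 0.00025, the smallest that the 8000 arrangements can give (adjusted p = 0.001 over 8 tests, lower in 9 of 9 EE libraries).

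For PRR7 the log2 ratio per length of Potri.010G215200 to Potri.008G046200 was 0.52 ± 0.214 for EE30, 0.60 ± 0.169 for EE50 and 0.53 ± 0.136 for EE80. Late morning libraries gave −1.37 ± 0.056 for LM30, −1.45 ± 0.0996 for LM50 and −1.48 ± 0.197 for LM80 (SD over 3 libraries each). The difference between times was 1.98, with the same smallest exact permutation p = 0.00025 (adjusted p = 0.001, higher in 9 of 9 EE libraries). At a single water level 3 libraries against 3 cannot give an exact p below 0.1, and both pairs reached that value at each level, with differences of −1.50, −1.26 and −1.27 for PRR9 and of 1.88, 2.05 and 2.01 for PRR7 at 30, 50 and 80 % SWCg.

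**Figure D4:**
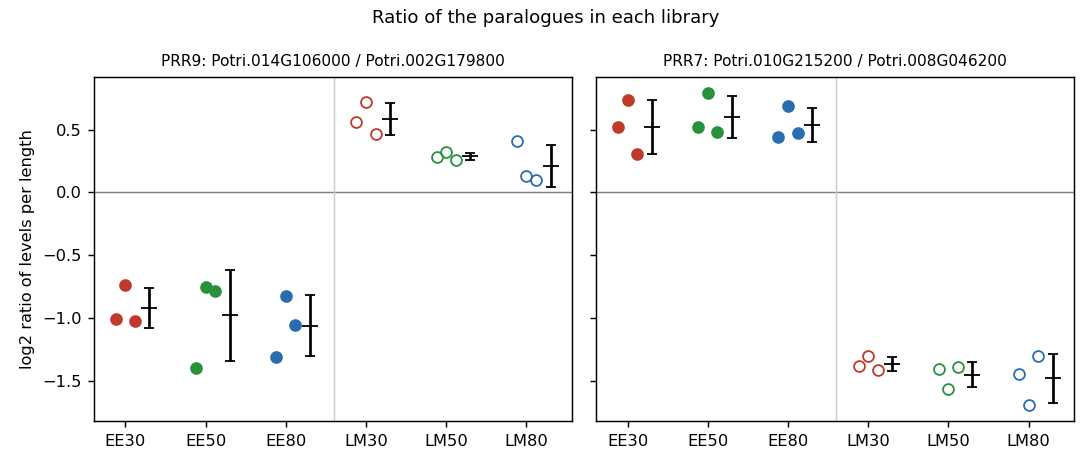
Log2 ratio of the paralogues per length of exon in each library, PRR9 on the left and PRR7 on the right, with points for libraries A, B and C (filled EE, open LM, coloured by SWCg as red 30 %, green 50 % and blue 80 %) and the mean with SD in black (n = 3). The line at 0 marks equal levels of the paralogues, and both ratios change sign between EE and LM, in opposite directions.

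As shares, Potri.014G106000 made up 34.6 ± 2.54, 33.9 ± 5.45 and 32.5 ± 3.67 % of the summed PRR9 RPKM in EE30, EE50 and EE80, against 59.9 ± 2.09, 54.9 ± 0.527 and 53.6 ± 2.89 % in LM30, LM50 and LM80 (SD, n = 3 each). Potri.010G215200 made up 58.8 ± 3.59, 60.2 ± 2.78 and 59.1 ± 2.26 % of the summed PRR7 RPKM in EE30, EE50 and EE80, against 28.0 ± 0.789, 26.8 ± 1.34 and 26.5 ± 2.63 % in LM30, LM50 and LM80 (SD, n = 3 each). In either pair, then, the paralogue with the larger daily change had the larger share per length at its high time and the smaller one at its low time.

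The pair sums moved in opposite directions. The summed PRR9 level was 66.1 ± 2.53, 60.1 ± 0.435 and 67.4 ± 5.32 RPKM in EE30, EE50 and EE80, against 111 ± 7.34, 105 ± 4.59 and 102 ± 4.13 RPKM in LM30, LM50 and LM80 (SD, n = 3 each). The summed PRR7 level was 134 ± 13.7, 136 ± 7.57 and 141 ± 8.93 RPKM in EE30, EE50 and EE80, against 53.5 ± 4.03, 56.9 ± 2.27 and 57.6 ± 5.17 RPKM in LM30, LM50 and LM80 (SD, n = 3 each). The PRR9 sum was 0.407 to 0.560 times the PRR7 sum in the EE libraries and 1.68 to 2.27 times in the LM libraries. These sums were formed after the values were seen and carry no test.

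No PRR gene passed the test in a comparison of water levels. The comparisons of 30 and 50 % with 80 % SWCg share the libraries at 80 % SWCg within a time. Over the 4 genes and 4 such comparisons, log2 fold changes ran between −0.20 and 0.28, and the 95 % intervals together spanned 0.767-fold to 1.43-fold. Of all genes tested edgeR called 1.94 % between EE30 and EE80 and 0.0127 % between EE50 and EE80. It called 0.0675 % between LM30 and LM80 and 0 % between LM50 and LM80. Between LM50 and LM80, 468 genes had an unadjusted p below 0.05, fewer than that threshold passes when no gene differs, and DESeq2 called 1. This background depended on the method: DESeq2 called 2.27 % of genes between LM30 and LM80, 4.33 % between EE30 and EE80 and 0.097 % between EE50 and EE80, and again no member. With the replicate letter as a block, EE30 against EE80 had 3.12 % of genes called, and again no member.

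Unadjusted, 2 of those 16 comparisons had p below 0.05. Potri.014G106000 was higher in LM30 than in LM80, with means of 196 and 161 CPM and a log2 fold change of 0.28 (95 % interval 0.05 to 0.52), but the edgeR adjusted p was 0.243. The groups overlap through LM30 C (175 CPM) and LM80 A (179 CPM). LM30 B, the highest value, and LM80 A are both among the libraries farthest from their own group, and with 1 library left out the log2 fold change ran between 0.21 without LM30 B and 0.36 without LM80 A, never past the threshold. Potri.002G179800 was at a mean of 130 CPM in EE50 and 149 CPM in EE80, a log2 fold change of −0.20 (95 % interval −0.38 to −0.01, edgeR adjusted p = 0.735), with EE50 A (141 CPM) above EE80 B (128 CPM).

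Averaged over both times of day, 5.56 % of all genes were called between 30 and 80 % SWCg and 0 % between 50 and 80 % SWCg. Potri.014G106000 had a log2 fold change of 0.18 at 30 % (95 % interval 0.01 to 0.35, edgeR adjusted p = 0.197). Potri.008G046200 went the other way, with −0.10 (95 % interval −0.21 to 0.01, edgeR adjusted p = 0.266). Potri.002G179800 was at −0.08 (adjusted p = 0.466) and Potri.010G215200 at −0.05 (adjusted p = 0.793). At 50 % SWCg the 4 values lay between −0.10 and −0.01, each with an edgeR adjusted p = 1.00. Beside the 0 genes called there, 955 of all genes tested had an unadjusted p below 0.05, and DESeq2 called 8. The 955 too are fewer than that threshold passes when no gene differs.

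The groups of Potri.008G046200 did not overlap between EE50 and EE80, where its highest EE50 library had 180 CPM and its lowest EE80 library 183 CPM, as for 12.2 % of all genes. That was the 1 non-overlap of a member with water level. No member had separate groups between EE30 and EE80 (22.6 % of all genes), LM30 and LM80 (17.5 %) or LM50 and LM80 (6.29 %). By mean CPM the order LM80, LM50, LM30, from high to low, was shared by both PRR7 genes, and the order LM30, LM50, LM80 was that of Potri.014G106000, but within each of these series all neighbouring groups overlap.

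**Figure D5:**
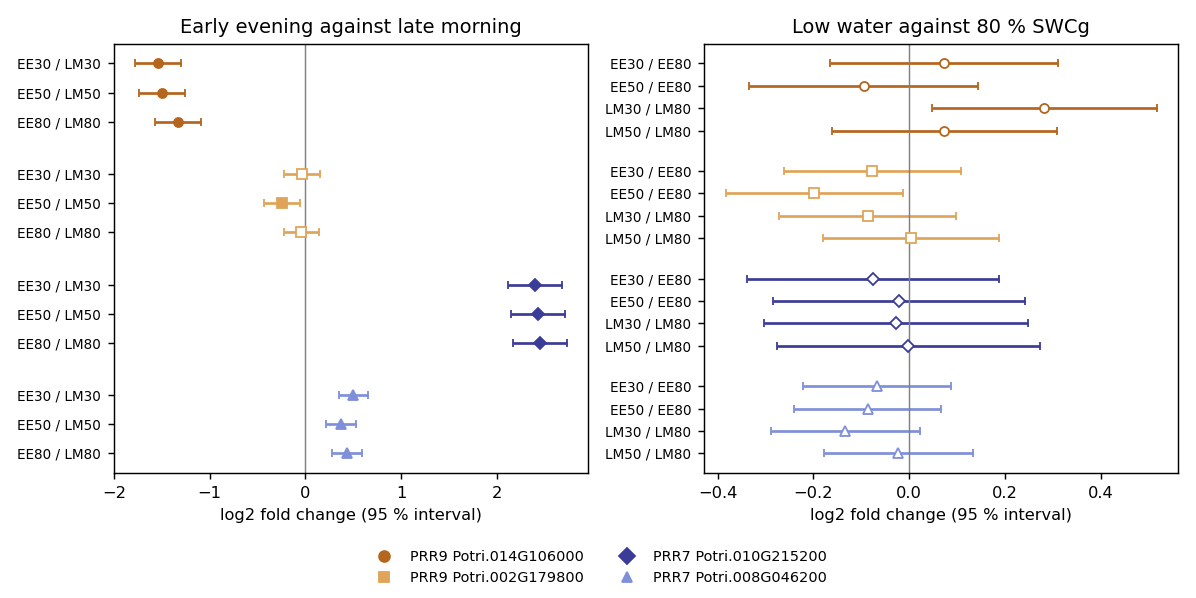
Log2 fold changes of the 4 PRR genes with 95 % intervals (edgeR), for EE against LM at 30, 50 and 80 % SWCg on the left and for 30 or 50 % against 80 % SWCg at each time on the right, on different horizontal scales; filled symbols passed an adjusted p of 0.05. The daily changes span −1.53 to 2.45, while those with water lie between −0.20 and 0.28 and none passed.

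The difference of the water comparison between the times of day was tested directly. For 30 against 80 % SWCg, EE minus LM, the log2 values were −0.21 for Potri.014G106000 (95 % interval −0.54 to 0.13), 0.01 for Potri.002G179800 (−0.25 to 0.27), −0.05 for Potri.010G215200 (−0.43 to 0.33) and 0.07 for Potri.008G046200 (−0.15 to 0.28). For 50 against 80 % SWCg the 4 values lay between −0.20 and −0.02. The lowest edgeR adjusted p of the 8 tests was 0.734. None of the genes tested passed, a background of 0 % for both differences, and DESeq2 called 32 and 2. At 30 and 50 % SWCg, 2040 and 1050 genes had an unadjusted p below 0.05. The 2040 are more, and the 1050 fewer, than that threshold passes when no gene differs.

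The ratios of the paralogues moved with water in 1 comparison before adjustment. Over both times, the PRR9 ratio was higher at 30 than at 80 % SWCg by 0.26 on the log2 scale, in 6 of 6 libraries relative to the mean at 80 % of the same time (two-sided exact permutation p = 0.045, adjusted p = 0.54 over 12 tests). In the late morning alone the difference was 0.37, in the early evening alone 0.14, with exact p = 0.1 and 0.4, where 0.1 is the smallest value possible. The PRR7 ratio differed by 0.05 over both times (exact permutation p = 0.61, adjusted p = 0.813).

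Other clock genes gave a frame for these changes. The study names more clock genes than were followed here. Of the 9 followed, chosen with earlier results of these data known, 7 rose and 2 fell in the early evening at each of the 3 water levels, where 28.3, 28.8 and 27.3 % of all genes rose and 25.1, 24.1 and 24.5 % fell at 30, 50 and 80 % SWCg. Their median log2 fold change at 80 % SWCg was 4.48, against 0.03 over all genes tested. The 2 that fell are the genes named CCA1, the morning MYB factors that PRR proteins repress in Arabidopsis. Like them Potri.014G106000 fell, but by less: its mean log2 fold change of −1.45 stands beside −2.18 for Potri.017G144800 and −4.21 for Potri.004G074300.

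The genes named PRR5, which follow PRR7 in the Arabidopsis day, had mean log2 fold changes of 4.52 (Potri.012G005900) and 2.21 (Potri.015G002300), so Potri.010G215200 at 2.42 lay between them. Those named GI, ZTL and LUX, which act in protein turnover and in the evening complex, rose too, with mean values between 2.00 and 8.97. With soil water, none of the 9 was called in any comparison of the main model. The lowest adjusted p was that of Potri.012G005900 for 30 against 80 % SWCg over both times (log2 fold change −0.47, edgeR adjusted p = 0.0685), a gene with 596 ± 40.1 CPM in EE30 and 775 ± 17.3 CPM in EE80 (SD, n = 3 each). This call depended on the method and on 1 library: the gene passed with DESeq2 (−0.48, adjusted p = 0.0228), with the likelihood ratio test of edgeR (−0.55, adjusted p = 4.66e-04), with the replicate block (−0.47, adjusted p = 0.0427) and without LM30 A (−0.65, adjusted p = 0.0102). It also passed in LM30 against LM80 with the likelihood ratio test (−0.73, adjusted p = 0.0118), and Potri.005G196700, named GI, passed over both times without LM30 A (−0.25, adjusted p = 0.0455).

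For each member the genes whose log2 CPM followed it most closely were sought by Pearson correlation over the 18 libraries, as a description, since all points share the split between times and run tags. For Potri.010G215200 they were Potri.001G248800 (r = 0.997), Potri.014G159800 (r = 0.997) and Potri.010G112500 (r = 0.996), and 3250 of 23699 genes had r above 0.9. For Potri.014G106000 they were Potri.008G087800, Potri.010G202400 and Potri.006G040800 (each r = 0.990), with 2083 genes above 0.9. For Potri.008G046200 they were Potri.002G121200 (r = 0.988), Potri.013G106200 (r = 0.977) and Potri.003G085500 (r = 0.974), with 1759 genes above 0.9. A correlation above 0.9 with these 3 members was therefore not particular to the genes named.

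Potri.002G179800 had no gene above 0.9, and its closest were Potri.019G062800 (r = 0.851), Potri.012G014000 (r = 0.834) and Potri.001G242600 (r = 0.830). A paralogue was never among the closest genes of a member. Potri.014G106000 and Potri.002G179800 correlated at 0.407, which ranks Potri.002G179800 in place 8420 among the genes most like Potri.014G106000. Potri.010G215200 and Potri.008G046200 correlated at 0.948, in place 1781 from the side of Potri.010G215200 and in place 295 from the side of Potri.008G046200.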

How the data were processed

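Leaf RNA was sequenced from 6 groups of 3 libraries as 100-base single reads. The deposited table holds raw read counts per gene, without normalization. The authors trimmed the reads with Trimmomatic, in a version not given in the sources used here. They aligned them to P. trichocarpa v4.1 with HISAT2 2.2.1, handled alignments with SAMtools 1.3.1 and counted with featureCounts 2.0.1. Its command in the file header sets neither strand nor the handling of reads that hit several places or genes, so by default strand was ignored and such reads were left out. Reads that paralogues share, and hybrid alleles that align poorly, may thus be missing from the levels, and their number was not tested. The length of merged exons comes from the same table.

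Counts were tested in R 4.3.3 with edgeR 4.0.16 by its quasi-likelihood F test (TMM, 1 model of 6 groups, average log2 CPM above −2 and below 9 as in the paper, 23700 genes, Benjamini–Hochberg over all of them, called below 0.05). Log2 CPM used a prior count of 2. Ratios of paralogues were tested by exact permutation in Python 3.11.15 with pandas 2.3.3 and numpy 2.4.6, and figures were drawn with matplotlib 3.10.9. Scripts were tested on simulated data. Pairs of libraries within a group had a chi-square per degree of freedom of 5.18 to 38.14, above counting error.

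Same-lettered libraries deviated together between EE30 and EE80 (correlations 0.206, 0.197 and 0.378 for A, B and C). The letter was fitted as a block beside the main model. That block gives all groups the same letter effect and is not a pairing of EE30 with EE80 alone. In each other comparison reported at least 1 letter was below 0.1. No source says what a letter marks.

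Alternatives were DESeq2 1.42.0, DESeq2 size factors, edgeR's likelihood ratio test on robust dispersions, no filter, filterByExpr, a replicate block, each time fitted alone and leaving out each library. Leaving out EE30 C, LM30 B and LM80 A together was chosen after seeing the data. Named are the 4 members, 9 of the other clock genes the study names, those for which an identifier was at hand, and the 3 genes closest to each member. The members and lists were chosen with earlier results of these data known. No gene sequences were used.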

Additional observations from a re-analysis of the deposited data

How the results depend on the processing

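For the 4 PRR genes in the 12 comparisons, 348 of 352 values under other settings and 856 of 864 values with 1 library left out kept their side of the threshold, and every value called kept its sign. In particular no member was called for soil water, or for its difference between times, under any setting tried. The 864 values leave out each library in turn, also those outside the groups compared. Such a library enters a comparison only through the scaling and the shared estimate of spread, so those values could hardly move. The ratios of paralogues were rated unchanged too, in 80 values under other settings and 168 with 1 library left out. Most of these could not cross the threshold, since 3 libraries against 3 cannot give an exact p below 0.1. Such values were rated unchanged where the difference moved by less than the largest SD of the groups compared. Only the comparisons over all water levels or both times could change sides, and they did not. The exceptions among the values of the 4 genes all concern Potri.002G179800, and their cause was not tested. Its log2 fold change of EE against LM over the 3 water levels, −0.11 (edgeR adjusted p = 0.0690), passed with DESeq2 (−0.14, adjusted p = 0.00908), with DESeq2 size factors in edgeR (−0.14, adjusted p = 0.0178), with a replicate block (−0.11, adjusted p = 0.0439), and without EE30 C, LM30 B and LM80 A (−0.14, adjusted p = 0.0315). With 1 library left out it lay between −0.13 and −0.074 and passed without EE30 C, EE50 A, EE80 A or LM30 B. Its fall in EE50 against LM50 lay between −0.31 and −0.21 with 1 library left out, and was not called without EE50 B, EE50 C, LM50 A or LM50 C.

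Counts of all genes called for soil water moved by more than 1.5 times. EE30 against EE80 had 460, with 1026 in DESeq2, 1576 in the likelihood ratio test and 739 with the replicate block of all groups. It had 1803 without the 3 libraries, and 62 to 737 with 1 library left out. LM30 against LM80 had 16, with 538, 694, 256 and 28 in the same order, and 0 to 171. The mean of 30 against 80 % over both times had 1318, with 2334 in the likelihood ratio test and 490 to 1592 with 1 library left out. EE50 against EE80 had 3, with 0 to 125 under other settings and 0 to 6 with 1 library left out. The comparisons with 0 genes called reached at most 1 (LM50 against LM80), 32 (50 against 80 % over both times), 44 and 11 (differences between times at 30 and 50 %) under other settings. The replicate block changed no other call of a member. Outside EE30 and EE80 at least 1 letter had a correlation below 0.1, and whether the letters link libraries there is not known. The log2 fold changes of 0.28 and −0.20 with soil water had 95 % intervals that exclude 0. With 3 libraries a group they did not pass after adjustment over all genes. The absence of a call is thus no evidence of no change, and the smallest change that could be detected was not estimated.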
